A study of Mus musculus with 4 samples.

Results

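The potassium channel genes of the mouse were described here as every protein-coding gene in RefSeq (GRCm38.p6, which mm10 corresponds to) whose symbol begins with Kcn, which gave 94 of 21900 genes. Their open chromatin was read from ATAC-seq, an assay in which a transposase cuts and tags accessible DNA. The cells were bone marrow-derived macrophages grown for 7 to 10 days in L929 medium and then kept for 24 hours with the culture medium of Hepa1-6 mouse liver cancer cells. The wild-type (WT) group was of littermate control mice, whose own floxed or Cre alleles the labels do not give. Knockout (KO) cells came from mice carrying Ezh2 fl/fl and LysM-Cre +/-. In these mice the recombinase is made in myeloid cells, and the gene removed encodes the histone H3 lysine 27 methyltransferase of Polycomb repressive complex 2. Each genotype had 2 libraries, and all 4 had received the tumour-cell medium. Libraries without it were not analysed here. The labels do not say whether replicates were separate mice, so each SD measures only the spread between these libraries, which may be technical.

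Potassium channels let potassium leave or enter cells and so set the membrane potential. Most have a pore made of alpha subunits: voltage-gated channels open on depolarisation, calcium-activated channels open when calcium inside the cell rises, inward rectifiers pass potassium best near rest, and tandem-pore (two-pore) channels carry a background leak. Silent modifier subunits make no channel alone but join others, and auxiliary subunits change gating or traffic. In macrophages the voltage-gated Kcna3 and the inward rectifier Kcnj2 are the textbook conductances, the calcium-activated Kcnn4 follows calcium signals, and loss of potassium from the cell is a known trigger of the inflammasome. Most other family members are best known from neurons, heart and kidney.

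The deposited peak lists were merged wherever peaks of any library shared at least 1 bp, giving 91858 regions. A library called a region when it had a peak in it. A gene-end region lay within 1 kb of either end of a gene, and an inside region lay in the gene further from its ends. Of all regions, 319 belonged to the 94 genes. One of these was shared by Kcnip1 and Kcnmb1, which makes 320 gene and region pairs. In this text a channel gene is open at an end when each of the 4 libraries called a gene-end region, and closed when no library called any region in it or within 1 kb of it. Closed thus means the absence of a deposited peak and not a measured lack of accessibility, because the files hold no read counts and the sequencing depth is unknown.

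The sequence just upstream of the start is shown for 6 channels, so that promoters under a peak can be set beside promoters without one. These are the 250 bases before the annotated start from the RefSeq promoter table of GRCm38.p6, on the strand of the gene. Capitals mark matches to 4 searched motifs, on either strand: GGAAGT (the ETS core), TGANTCA (AP-1), GGGCGG (SP and KLF factors, CCGCCC when read from the other strand) and TATAAA (the TATA box). In the first 4 channels the window around the start was under a peak in all 4 libraries. Kcna3 lies at chr3:107035912-107036161 (plus strand), Kcnj2 at chr11:111065914-111066163 (plus), Kcnj10 at chr1:172340960-172341209 (plus) and Kcnn3 at chr3:89519914-89520163 (plus).
Kcna3: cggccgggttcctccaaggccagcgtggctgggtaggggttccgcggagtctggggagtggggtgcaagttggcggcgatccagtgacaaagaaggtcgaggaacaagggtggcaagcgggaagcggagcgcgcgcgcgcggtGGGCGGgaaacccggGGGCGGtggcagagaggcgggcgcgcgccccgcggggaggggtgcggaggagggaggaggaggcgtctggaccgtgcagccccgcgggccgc
Kcnj2: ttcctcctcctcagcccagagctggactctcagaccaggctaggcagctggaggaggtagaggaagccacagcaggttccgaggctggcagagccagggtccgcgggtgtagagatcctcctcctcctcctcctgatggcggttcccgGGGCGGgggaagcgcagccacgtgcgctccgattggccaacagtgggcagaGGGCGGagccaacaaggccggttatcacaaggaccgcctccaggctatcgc
Kcnj10: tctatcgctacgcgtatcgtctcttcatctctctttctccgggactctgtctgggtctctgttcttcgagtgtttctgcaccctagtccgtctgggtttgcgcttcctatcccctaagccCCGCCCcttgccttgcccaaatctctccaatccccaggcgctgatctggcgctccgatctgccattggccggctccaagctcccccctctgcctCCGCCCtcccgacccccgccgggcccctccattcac
Kcnn3: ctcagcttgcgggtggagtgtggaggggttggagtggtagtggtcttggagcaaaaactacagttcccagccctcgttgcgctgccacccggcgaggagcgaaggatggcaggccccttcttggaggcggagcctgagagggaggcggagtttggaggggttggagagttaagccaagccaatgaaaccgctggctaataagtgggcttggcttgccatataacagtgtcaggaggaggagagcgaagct
The last 2 belong to voltage-gated channels that were closed, Kcna5 at chr6:126535556-126535805 (minus strand) and Kcnd2 at chr6:21215096-21215345 (plus).
Kcna5: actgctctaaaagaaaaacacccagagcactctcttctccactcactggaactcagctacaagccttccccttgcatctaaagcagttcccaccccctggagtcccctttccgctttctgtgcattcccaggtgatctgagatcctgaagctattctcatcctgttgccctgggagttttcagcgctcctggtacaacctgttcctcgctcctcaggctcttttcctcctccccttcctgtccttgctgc
Kcnd2: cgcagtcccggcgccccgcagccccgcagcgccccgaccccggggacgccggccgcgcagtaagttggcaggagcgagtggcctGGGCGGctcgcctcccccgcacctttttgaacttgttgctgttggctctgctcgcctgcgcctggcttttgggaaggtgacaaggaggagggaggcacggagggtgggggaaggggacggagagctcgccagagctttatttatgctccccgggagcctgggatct
Kcna3, Kcnj2 and Kcnj10 each held 2 SP and KLF matches in this stretch, while Kcnn3 and Kcna5 held no match to any of the 4 motifs. The closed Kcnd2 held 1 SP and KLF match and 22 CpG dinucleotides, more than Kcnj2 with 14, Kcnj10 with 17 and Kcnn3 with 10. Only Kcna3 had more, with 31, and the closed Kcna5 had 3. A motif match is a description of letters and not of a bound factor.

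In these macrophages 28 of the 94 channel genes (29.8%) were open at an end, against 54.7% of all protein-coding genes. Another 15 (15.96%) had a gene-end region in 1 to 3 libraries. A further 16 (17.0%) had regions only inside the gene while each library called at least 1, and 14 (14.9%) had inside regions in some libraries only. No region was called in any library for 21 (22.3%), against 25.9% of all protein-coding genes. The channel genes thus had fewer open ends than genes at large and, in the full lists, a slightly lower share of closed genes. The second comparison depends on weak peaks: with a minimum of 2 on −log10 q, 30.9% of channel genes and 28.1% of all genes were closed, and with the weakest 50% of each list removed 55.3% and 37.2% were. Their genes were long, with a median of 32.7 kb against 17.1 kb for all genes, and regions called in all 4 libraries were sparse in them, at 1.25 per 100 kb of gene against 3.51 over all genes. All 4 libraries called 133 of the 319 regions (41.7%), where the share over all regions was 57.8%, and 108 (33.9%) in a single library, against 23.0%. The first kind had a median width of 448 bp and the second 167.5 bp.

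**Figure D1:**
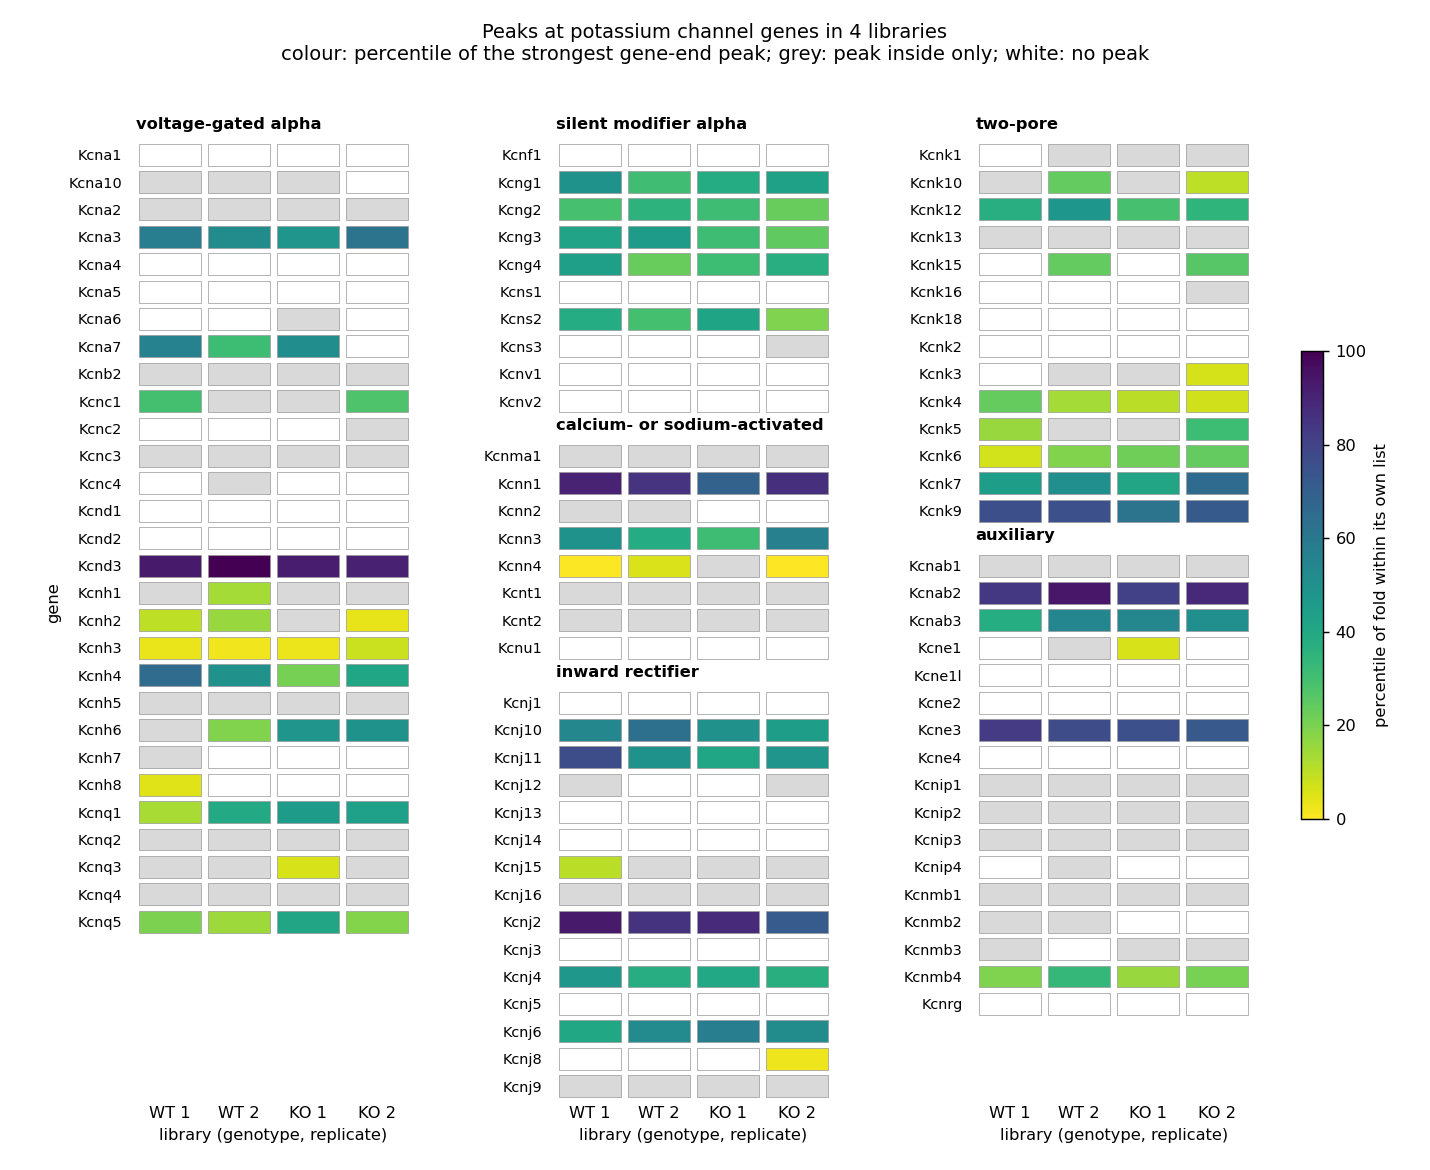
Calls at 93 of the potassium channel genes, grouped by class, in the libraries WT1, WT2, KO1 and KO2. Colour gives the percentile of the strongest gene-end peak within its own list, grey an inside region only and white no region; 27 of the drawn genes have a gene-end call in every column, and 21 genes have no call in any.

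The macrophage channels known best had calls of very different kinds. Kcnj2, the inward rectifier that holds the resting potential, had the broadest gene-end region of the family, 2001 bp across its start (chr11:111064727-111066727). The authors' fold enrichment there was 7.39 and 6.32 in WT against 7.02 and 5.47 in KO. Since folds are not comparable between lists, each was also ranked in its own list. The Kcnj2 peaks stood at percentiles 93.3 and 85.5 in WT against 88.1 and 71.5 in KO, so all 4 libraries placed this start in the upper part of their list, and the genotypes overlapped. The peaks in this region added up to 756 and 1159 bp in WT against 863 and 1978 bp in KO, the widest being in KO replicate 2, where a single peak spanned what the other libraries called as separate peaks.

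Kcna3, the delayed rectifier of macrophages and T cells, is a short gene of 1.97 kb with a region at each end. Its start region (chr3:107035826-107036352) stood at percentiles 34.2 and 33.3 in WT against 38.8 and 30.8 in KO. The region 100 bp beyond its far end stood higher, at 58.0 and 51.7 in WT against 47.7 and 62.0 in KO. Both ends were thus called in every library, the start below the middle of each list and the far end near it, with no order between genotypes. The lncRNA genes AI504432 and Gm38712 lay 894 and 956 bp from the far-end region. Kcna5, a voltage-gated subunit that can join Kcna3, was closed, and so were Kcna1 and Kcna4 of the same subfamily.

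Kcnn4, the intermediate-conductance calcium-activated channel, had one of the weakest starts among the channels named. The region 16 bp from its start (chr7:24369842-24370387) stood at percentiles 0.649 and 5.49 in the WT libraries and 0.264 in KO replicate 2, and KO replicate 1 did not call it. Its 3 inside regions were called in all 4 libraries and ranked higher in each library that called both. The strongest of them in WT replicate 1, at chr7:24373443-24374618, stood at 39.8 and 30.5 in WT against 26.1 and 19.7 in KO. In the full lists the start was thus called in both genotypes, but with a minimum of 2 on −log10 q both WT libraries and no KO library called it.

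Kcnk13, a tandem-pore channel known from microglia, had 11 regions called in all 4 libraries, the most of any channel gene, within 99.5 kb. None lay within 1 kb of its annotated ends, because the nearest (chr12:99964365-99966571, 2207 bp) began 1216 bp inside. Its promoter window was under a peak in all 4 libraries. The region at chr12:99979542-99980331 reached percentiles 84.4 and 86.4 in WT against 84.4 and 82.4 in KO, nearly the same rank in each list. Kcnk6, a tandem-pore channel through which macrophages lose potassium during inflammasome activation, had a weak gene-end region, at 6.77 and 19.0 in WT against 22.1 and 23.8 in KO. Its inside region (chr7:29228196-29228626) ranked far higher, at 60.8 and 83.4 in WT against 85.5 and 68.1 in KO. Kcnma1, the large-conductance calcium-activated channel, had 15 regions in 713 kb, of which 1 was called in all 4 libraries. That region (chr14:23465024-23465555) stood at 79.9 and 56.3 in WT against 71.9 and 87.6 in KO.

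**Figure D2:**
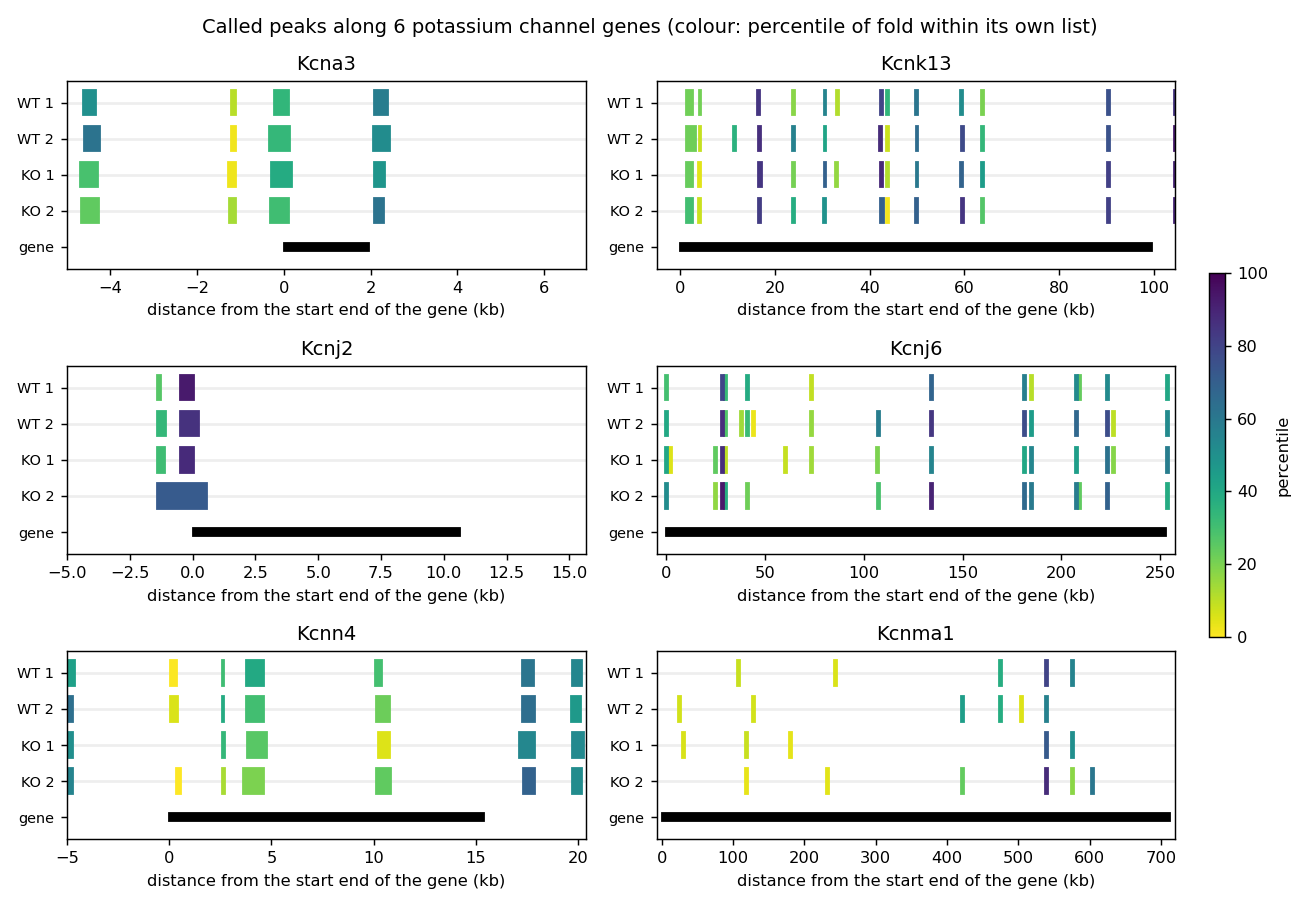
Deposited peaks of the 4 libraries along selected channel genes, with position as distance from the gene start in kb and 5 kb shown beyond each end; colour is the percentile of fold within the list. Peaks shorter than 0.6% of the gene length are widened to that size to be visible, and Kcnk13 carries peaks along its length.

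Ranked by the lowest of the 4 percentiles of their strongest gene-end region, the top 10 channels were Kcnd3, Kcnab2, Kcne3, Kcnj2, Kcnn1, Kcnk9, Kcna3, Kcnj10, Kcnk7 and Kcnj11. Kcnab2, which encodes a cytoplasmic subunit that binds Kcna channels, had percentiles of 83.96 and 94.03 in WT against 81.2 and 88.6 in KO at its start (chr4:152477308-152478362). That region also lay at an end of Nphp4, a gene of primary cilia, so it cannot be given to Kcnab2 alone. Kcne3, a single-pass subunit that partners Kcnq1 and other pores, stood at 82.4 and 77.3 in WT against 75.8 and 72.4 in KO at its start (chr7:100176297-100176720). This start was called by every library at a high rank, and an end of an lncRNA gene, Gm34821, lay in the same region.

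Kcnn1, a small-conductance calcium-activated channel, stood at 90.6 and 84.9 in WT against 68.4 and 86.3 in KO at the start end of the gene. Neither of its 2 promoter windows, which lie further inside the gene, was under a peak in any library. Kcnk9, an acid-sensitive leak channel, stood at 76.0 and 75.5 in WT against 61.9 and 72.1 in KO, 535 bp from an end whose strand the table did not give. In both genes KO replicate 1 was the lowest library. Kcnd3, an A-type voltage-gated channel of heart and brain, headed the ranking with 93.0 and 99.7 in WT against 92.5 and 91.0 in KO. Its region (chr3:105674676-105675002) lay 674 bp beyond the far end, while its promoter window had no peak in any library. With a window of 500 bp instead of 1 kb, Kcnd3 and Kcnk9 both lost their gene-end calls.

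Kcnj10, an inward rectifier of astrocytes and kidney whose upstream sequence is given above, stood at 53.8 and 63.3 in WT against 49.9 and 44.9 in KO. Kcnk7, a tandem-pore subunit, stood at 44.9 and 50.4 in WT against 41.2 and 65.4 in KO. Kcnj11, the pore of the ATP-sensitive channel, stood at 76.8 and 49.5 in WT against 40.7 and 47.9 in KO. Apart from Kcnj11 in WT replicate 1, these 3 ends stood between percentiles 40.7 and 65.4. Among the top-ranked ends, both WT percentiles stood above both KO percentiles at Kcnd3, Kcne3, Kcnk9, Kcnj10 and Kcnj11. At Kcnab2, Kcnj2, Kcnn1, Kcna3 and Kcnk7 the genotypes overlapped, and none of these ends had the reverse order. This order was not tested, and its share over all gene ends is not given here. The lists also differ in length, so no change between genotypes is read from any of these ranks.

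The open channel ends were weak for open gene ends. Over the 27 channel genes with 1 gene-end region called in all 4 libraries, the median of the lowest percentile was 30.9, with a range from 6.77 to 91.0. Over 11953 such protein-coding genes it was 70.1. Inside regions differed less, with a median of 35.9 over 103 regions in channel genes and 44.8 over 22726 in all genes. When the weakest 50% of each list was removed by fold, 6 channel genes stayed open at an end, namely Kcnj2, Kcnk9, Kcnd3, Kcnab2, Kcne3 and Kcnn1, and 52 were closed. These 6 are 6.38% of the channel genes, and 40.2% of all protein-coding genes met the same condition. The 52 closed genes are 55.3% of the channel genes, against 37.2% of all genes. Kcna3 then had a gene-end region in 3 libraries, Kcnj10 in 2 and Kcnn3 in 1. At Kcna3 and Kcnn3 the remaining calls were far-end regions, because every peak of their start regions was among the weakest 50%.

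Open ends are given next by class, where 29.8% of all channel genes and 54.7% of all protein-coding genes were open at an end. The classes are small, and differences between them were not tested. Among voltage-gated alpha subunits 7 of 30 were open at an end (among them Kcna3, Kcnd3, Kcnh3, Kcnh4, Kcnq1 and Kcnq5), 7 were open in some libraries, and 5 were closed (Kcna1, Kcna4, Kcna5, Kcnd1 and Kcnd2). Kcnh3 had no single region shared by the 4 libraries, and its gene-end calls were weak, at percentiles of 8.13 or lower. Kcnq5 was open only through its merged region. WT replicate 2 had a peak of 1191 bp there that reached to 900 bp from the start, and without that library Kcnq5 kept a gene-end region in 1 library. The other 27 open genes had a peak of each library itself within 1 kb of an end.

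The silent modifier subunits were divided between open and closed genes. All 4 Kcng genes were open at an end, with Kcns2. Kcnf1, Kcns1, Kcnv1 and Kcnv2 were closed, and Kcns3 had an inside region in some libraries. The strongest gene-end region of each of Kcng1 to Kcng4 stood at percentiles from 23.1 to 49.5 over all libraries. Of 8 genes grouped here as calcium- or sodium-activated channels, Kcnn1 and Kcnn3 were open at an end and Kcnn4 in 3 libraries. Kcnu1, the sperm channel, was placed in this group by its symbol and not by how it is activated, and it was closed.

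Inward rectifiers were open at an end in 5 of 15 genes (Kcnj2, Kcnj4, Kcnj6, Kcnj10 and Kcnj11) and closed in 5 (Kcnj1, Kcnj3, Kcnj5, Kcnj13 and Kcnj14). Kcnj8, the sister pore of Kcnj11, was called at an end in KO replicate 2 alone and Kcnj15 in WT replicate 1 alone. Tandem-pore channels were open in 5 of 14 (Kcnk4, Kcnk6, Kcnk7, Kcnk9 and Kcnk12), in some libraries in 4, and closed in 2 (Kcnk2 and Kcnk18). Of 17 genes grouped here as auxiliary, which include the regulator Kcnrg, 4 were open at an end (Kcnab2, Kcnab3, Kcne3 and Kcnmb4). The Kcnab3 region at chr11:69325753-69326459 also lay at an end of Trappc1, while its other end region called in all 4 libraries was not shared. No Kcnip gene, which encode calcium-binding partners of Kcnd channels, was open at an end, although Kcnip1, Kcnip2 and Kcnip3 had inside regions in all 4 libraries. Of the 5 Kcne genes Kcne3 was open, Kcne1 was called at an end in KO replicate 1 alone, and Kcne1l, Kcne2 and Kcne4 were closed.

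**Figure D3:**
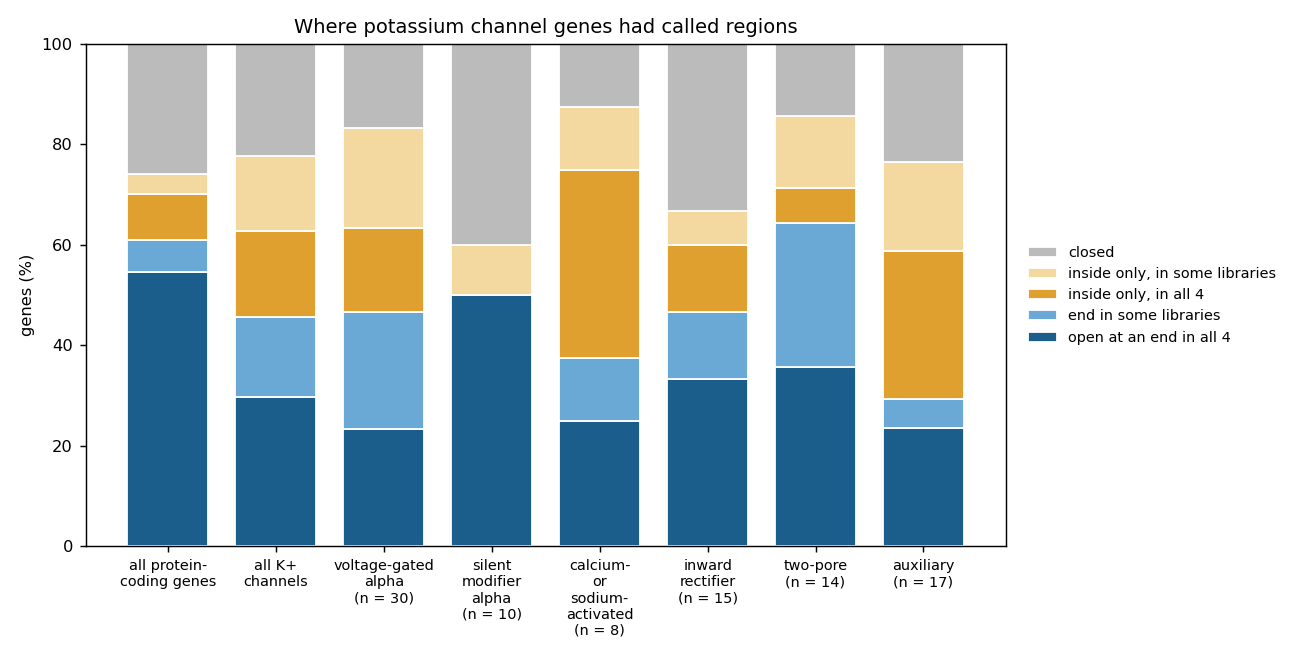
Share of genes in each state of calling (stacked bars, percent of genes) for all 21900 protein-coding genes, the 94 potassium channel genes and 6 classes of them, with the number of genes under each class. Open ends make up 29.8% of channel genes against 54.7% of all genes, and closed genes 22.3% against 25.9%.

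The closed channels had a median length of 14.5 kb, against 32.7 kb for all channel genes, and 4 exceeded 50 kb. They were longer than closed genes at large, whose median was 4.01 kb, and the median of all genes was 17.1 kb. Kcnd2, the A-type channel of neurons and heart, spans 514 kb (chr6:21215346-21729805) without a peak in any library. Kcnk2, a mechanosensitive leak channel, spans 195 kb and Kcnj3, a G protein-gated rectifier, 186 kb. Kcnu1 spans 89.3 kb and Kcna4, another A-type channel, 36.2 kb. Other long genes carried many shared regions: Kcnj6 and Kcnq1 had 9 each and Kcnip1 and Kcnq3 7 each. Kcnip4, the longest at 1136 kb, had 2 regions, each called in a single library. Long genes were thus found among both the most called and the closed. One shared region of Kcnq1, at chr7:143295560-143296950, overlapped the gene of Kcnq1ot1, the imprinted antisense RNA that runs within Kcnq1. It stood at percentiles 57.2 and 76.3 in WT against 84.2 and 64.9 in KO.

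**Figure D4:**
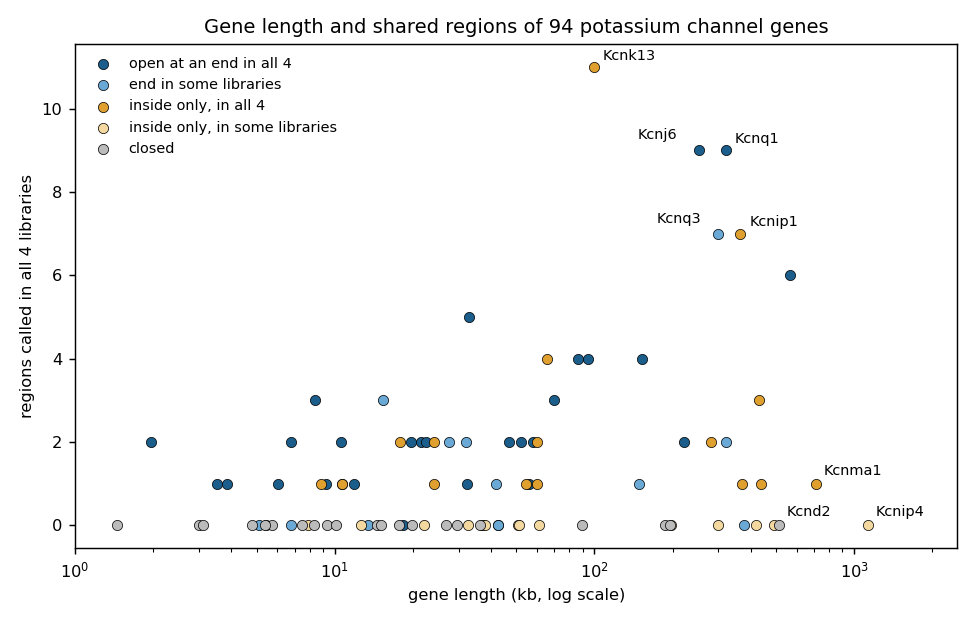
Gene length (kb, log scale) against the number of regions called in all 4 libraries for each of the 94 channel genes, coloured by state. Kcnk13 has 11 such regions in 99.5 kb, whereas Kcnd2 has none in 514 kb and Kcnma1 has 1 in 713 kb.

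The promoter table held 94 windows of 300.0 bases, from 250 before to 50 after a start, for 69 of the 94 channel genes. In 12 of these 69 genes (17.4%) a window was under a peak in all 4 libraries, namely Kcna3, Kcnab1, Kcnab2, Kcne3, Kcnh1, Kcnh4, Kcnj2, Kcnj6, Kcnj10, Kcnk12, Kcnk13 and Kcnn3. The share was 51.5% over all protein-coding genes with a window. In 50 of the 69 genes no window was under a peak in any library. Counted by window, 72 of the 94 channel windows and 9784 of 21263 windows over all protein-coding genes were under no peak. Kcnab1, Kcnh1 and Kcnk13 were in the first set although they were not open at an end, since the region over the window lay more than 1 kb inside the gene. The SP and KLF motif was found in 57.1% of the 14 channel windows called in all 4 libraries and in 41.7% of the 72 called in none. Over all protein-coding windows the shares were 67.9% and 22.2%, and 46.2% irrespective of calls.

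Uncalled channel promoters thus held this motif more often than uncalled promoters at large, a description that was not tested. Their median CpG count was 8 per window against 4, while called channel windows had 19 against 22. Of the 72 uncalled channel windows, 11 (15.3%) held at least 22 CpG, in Kcna2, Kcnc1, Kcnd2, Kcnd3, Kcnj4, Kcnk2, Kcnk15, Kcnma1, Kcns1 and Kcns3. The share was 8.97% of 9784 uncalled windows over all genes. This minimum was chosen after the values were seen. The ETS core was in 21.4% of called and 15.3% of uncalled channel windows, against 31.1% and 18.6% over all genes and 24.8% of all windows. AP-1 matches were in 4.26% of channel windows and 6.99% of all windows, and TATA boxes in 5.32% and 12.6%.

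Between genotypes the number of called regions in channel genes did not differ beyond the spread of replicates. The WT libraries called 197 and 215 of them and the KO libraries 199 and 216, so the groups interleaved. The means were 206.0 ± 12.7 in WT and 207.5 ± 12.02 in KO (SD, n = 2 each), a difference of 1.5 (exact two-sided permutation test, p = 0.667). A gene end was called in 35 and 35 channel genes in WT and in 32 and 37 in KO. Here the 2 KO libraries lay on either side of WT (35.0 ± 0.0 against 34.5 ± 3.54, SD, n = 2 each, exact permutation p = 1.0). Peaks covered 66.8 and 73.2 kb in WT and 59.95 and 73.5 kb in KO. KO replicate 1, which had the shortest list of the series (67055 peaks, against 69210 to 72887 in the others), gave the lowest value of all. The means were 69.98 ± 4.54 and 66.7 ± 9.62 kb (exact permutation p = 1.0).

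**Figure D5:**
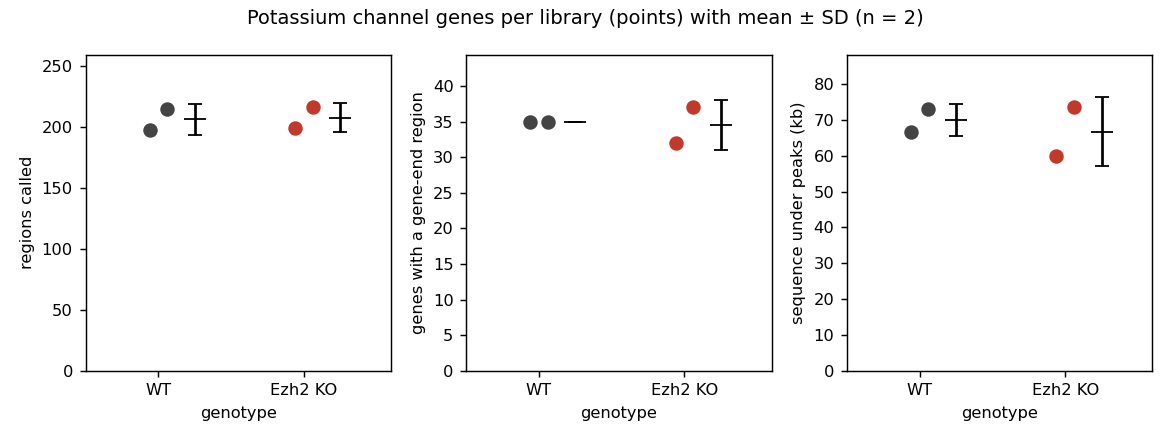
Regions called in channel genes, channel genes with a called end, and kilobases under peaks in each of the 4 libraries (points), with the mean ± SD of each genotype (bars, n = 2). WT and KO points overlap in all 3 panels, and KO1 is lowest for gene ends and kilobases.

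In the full lists, no channel gene had its end called in both libraries of one genotype and in neither of the other, in either direction. Over all protein-coding genes this held for 0.297% toward KO and 0.315% toward WT. Stricter lists ended the count of 0 on the WT side. With a minimum of 2 on −log10 q, or with lists of equal length, Kcnh2 and Kcnn4 were called at an end in both WT libraries and no KO library (2.13% of channel genes, against 0.219% of all genes under either setting). With the weakest 50% of each list removed Kcnj10 was (1.06% against 0.484%). In the full lists no promoter window of a channel gene was split that way either, at 0 of 94 in each direction. Over all protein-coding genes, 54 of 21263 windows were called in both KO libraries and no WT library, and 67 the reverse. Inside genes, both KO libraries but no WT library called 6 regions, 1.88% of channel regions against 1.47% of all regions. In the reverse direction there were 10, or 3.13% against 2.03%. Both shares lay near those of the genome. They fell in 6 and 8 channel genes (6.38% and 8.51%, against 3.41% and 4.44% of all genes, which are shorter).

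All 16 genotype-only regions were inside regions, with widths from 114 to 650 bp, and most were weak. The lower percentile of the calling pair had a median of 15.2 and reached 37.8 at most. The KO-only regions lay in Kcnab1, Kcng2, Kcnip3, Kcnj6, Kcnj10 and Kcnn3. The strongest was in Kcnn3, a small-conductance calcium-activated channel, at chr3:89635137-89635303, with percentiles of 35.2 and 53.7 in KO replicates 1 and 2. Kcnn3 also held a WT-only region at chr3:89589344-89589620, at 10.6 and 4.22. The gene thus held genotype-only regions of both kinds.

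The KO-only regions of the other 5 genes were weaker. In Kcnj6, a G protein-gated rectifier, the percentiles at chr16:94972597-94972717 were 24.3 and 16.6, and in Kcnj10 at chr1:172368862-172369016 they were 15.1 and 16.4. In Kcnab1, a beta subunit, they were 11.7 and 8.25 at chr3:65196669-65197318. Kcng2 had 7.44 and 13.3, and Kcnip3, which encodes a calcium sensor, 1.24 and 3.78. None of these 5 regions exceeded percentile 24.3 in either KO list.

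WT-only regions were 2 in Kcnh5, 2 in Kcnip1 and 1 each in Kcnma1, Kcnn2, Kcnn3, Kcnq1, Kcnq3 and Kcnq5. By the lower percentile of the pair, the highest was in Kcnma1 at chr14:23529889-23530087, with percentiles of 37.8 and 37.9 in WT replicates 1 and 2. In Kcnq5 (chr1:21554692-21554986), a pore of the neuronal M-current, they were 38.8 and 35.0. In Kcnq3, its partner (chr15:66279402-66279938), they were 36.2 and 20.1. Kcnn2 had 39.2 and 22.9, and Kcnq1, an epithelial and cardiac channel, 7.29 and 7.63. Kcnh5, an ether-a-go-go channel, had 41.5 and 8.86 in one region and 15.4 and 22.0 in the other. Kcnip1 had 10.1 and 24.8 in one and 44.0 and 29.2 in the other. Voltage-gated alpha subunits held 5 of the 10 WT-only regions and none of the KO-only ones, where they held 36.3% of all channel gene and region pairs, a split noticed after the values were seen and not tested.

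Regions called in exactly 2 libraries numbered 47 in channel genes. Of these 16 (34.0%) paired the libraries by genotype, 12 (25.5%) by replicate number and 19 (40.4%) the remaining way, so the genotype pairing was not the most frequent. Over all regions the shares were 36.1%, 33.8% and 30.1%. Leaving out any library loosens the definition, since the remaining library of that genotype then decides alone, and KO-only regions then numbered 10 to 38 and WT-only regions 18 to 42.

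The width of shared regions gave no clear side either. In 20 of the 133 channel regions called in all 4 libraries (15.0%, against 16.2% of all such regions) both KO libraries had more bases under peaks than both WT libraries. In 24 (18.0%, against 16.9%) the order was reversed. In Kcnj6 the region at chr16:94816161-94816705 held 165 and 166 bp in WT against 261 and 545 bp in KO, which is the largest KO-to-WT ratio of widths among these regions. In Kcnip1 the region at chr11:33679699-33680317 held 593 and 563 bp in WT against 249 and 240 bp in KO. Kcnj10 had 3 inside regions that were wider in WT, with 269 and 313 bp against 142 and 145 bp at chr1:172357495-172357835. Single genes such as Kcnip1 and Kcnj6 had regions of both kinds.

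Other gene lists place the channels among their functional neighbours, where 54.7% of all protein-coding genes were open at an end. The lists overlap, for example in Clcn7. Of 12 other ion channels known from macrophages, 12 were open at an end, and of 16 calcium entry and release channels 14. Potassium pumps and cotransporters were open in 8 of 17, and partner subunits of potassium channels with other names in 1 of 9. Other channel families gave shares close to that of the Kcn genes (29.8%): 7 of 26 Cacn genes (26.9%), 4 of 14 Scn genes (28.6%) and 7 of 24 TRP genes (29.2%) were open at an end. The Clcn family of chloride channels and exchangers had 7 of 9 (77.8%). Of 9 genes of the REST complex, which represses neuronal genes including channels, 8 were open at an end.

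The marker lists bear on the cell type. Of 12 macrophage markers 12 were open at an end, against 4 of 8 neuronal, 1 of 8 muscle, 1 of 8 hepatocyte, 3 of 8 T cell, 2 of 8 B cell and 3 of 8 fibroblast markers. Whether other cells contributed to the weak channel calls was not tested. Ezh2 itself was open at an end in all 4 libraries, and a peak list cannot show whether its floxed exons were removed, so the knockout was not checked here.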

How the data were processed

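The 4 deposited broad peak lists were used, 1 per library and none pooled. The submitters' processing notes name fastp, Bowtie2, MACS2 and mm10. Versions, call settings, any shift of reads for the transposase and the filter applied after calling are, for these lists, not given in the sources used here. Per peak, the authors deposited a score, a fold enrichment (a ratio over the caller's background), and −log10 p and −log10 q values; the largest q-value was 0.0497. The deposited fold values were used to rank and filter peaks within their own list and, for 1 region, to describe it. Depth is unknown, which limits every statement on closed genes.

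Peaks were merged and assigned to RefSeq genes with Python 3.11.15, pandas 2.3.3 and NumPy 2.4.6. Library values were compared with an exact two-sided permutation test coded in Python with NumPy. The merging and assignment code was tested on simulated data. Ends were taken at either side, since strand was known for 69 of 94 genes. Alternatives changed the merging, the peak filters, the window and the libraries used. Members, gene lists and the rule for named genes were chosen with earlier results of these data known. That rule took the top 10 by rank at a gene end, 9 channels described in macrophages, all genes with a genotype-only region, the 5 genes with most shared regions and the 5 longest closed genes. Other genes were named by class. The planned comparisons of 2 libraries with 2 allow no p below 0.333. A gene that is counted among the members is not reported by name here.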

Additional observations from a re-analysis of the deposited data

How the results depend on the processing

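The counts of open (28), closed (21) and shared regions (133) stayed within 1.5 times their values under other merging rules, windows of 500 bp and 2 kb, a minimum of 2 on −log10 q, lists of equal length and removal of peaks under 150 bp. With the weakest 50% of each list removed they became 6, 52 and 41, WT-only regions fell to 3 (from 10), 1 gene end was called in both WT and neither KO library, and the KO minus WT difference in regions was -1.5. The number of such WT-only gene ends was 2 with the minimum on −log10 q and 2 with lists of equal length, from 0. The difference in regions was -3.0 with that minimum, and the difference in channel genes with a called end was 1.0 with the 500 bp window and 0.5 with 2 kb. The cause was not tested. No p in these comparisons can fall below 0.333.

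Without 1 library in turn, open genes numbered 27 to 30, closed genes 22 to 25, shared regions 137 to 144, KO-only regions 10 to 38, WT-only regions 18 to 42, KO-only gene ends 0 to 2 and WT-only gene ends 1 to 2. The KO minus WT difference ranged from -7.5 to 11 regions, from -3.0 to 2.0 gene ends and from -10.05 to 3.57 kb.

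With the replicate number as a block the differences were 1.5 regions (exact permutation p = 0.5), -0.5 gene ends (p = 1.0) and -3.23 kb (p = 1.0), where the smallest p is 0.5. Deviations of same-numbered libraries correlated at 0.007 (calls) and 0.009 (percentiles), so the numbers gave no sign of pairing. Of 372 calls of named genes under the alternatives, 347 stayed and 25 moved. Of the moves, 12 came with the weakest 50% of each list removed. Named genes without a gene-end call could not lose one under stricter lists, so the 347 do not measure stability.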
